A study of Mus musculus with 20 samples.

Results

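Interferon stimulated genes are described here in the blood of mice that carried a subcutaneous hepatoma. A list of 42 such genes was matched, by current or older name, to the probes of a whole mouse genome array, and 41 were found, with 64 probes, 6 of them under an older name. The gene not found was Xaf1. Genes whose sample channel, Cy5, rose well above background on fewer than 4 of the 20 arrays were left out. This left 40 members among 15178 genes, and Ifi44 was the member that was too dim. In 38 members the signal was well above background on all 20 arrays. Mx1 was above it on 15 arrays and on none of day 15, so its day 15 value is only a bound, and Mx2 was above it on 18.

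The samples were whole blood of 4 female C57Bl/6 mice, numbered 305, 310, 315 and 320, drawn on day 0, before Hepa1-6 cells (a hepatoma line of the mouse) were placed under the skin, and on days 10, 15, 20 and 25 after it. All 5 groups hold the same 4 mice, every mouse received the cells, and no mouse without them was sampled on the later days. The sources used here do not give the age of the mice. Each sample, labelled with Cy5, shared an array with a common Cy3 reference of blood from untreated C57Bl/6 mice, and every value below is a log2 ratio of sample over reference after loess normalization, or a difference of such ratios between days. Each day had a slide of its own for its 4 arrays, and day and slide therefore cannot be told apart. In whole blood, fewer cells of a type and less RNA per cell cannot be told apart either.

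Interferons are cytokines that bind receptors on the cell surface and act through Janus kinases on STAT proteins. Type I interferons bring a complex that holds STAT2 and IRF9 to the interferon stimulated response element of target promoters, and interferon gamma acts through the gamma activated sequence. The targets include viral RNA sensors, enzymes that block translation or degrade RNA, membrane proteins that stop viral entry, and the ubiquitin-like modifier ISG15 with its conjugation machinery. Leukocytes of blood carry these transcripts at rest, and reticulocytes, the youngest red cells, still hold RNA.

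Of the 43379 spots of an array that were not controls, 38.1% to 52.2% were well above background in Cy5. How precise a value is depends on how few arrays there are. The median Cy5 net intensity was 84.2 to 112 on day 0 and 48.1 to 66.5 on the later days. The mean correlation of an array with the others of its day, across genes, lay between 0.41 and 0.83, and was lowest for mouse 305 on day 20 and mouse 320 on day 0. Markers of blood cells were measured, with 9 of 10 mature neutrophil, 6 of 8 erythroid, 8 of 8 monocyte, 6 of 6 B cell, 7 of 7 T cell, 6 of 6 platelet and 4 of 5 plasmacytoid dendritic cell genes kept. Of 6 hepatoma and liver genes 4 were kept, and their mean log2 ratio was between -0.035 and 0.51 on all arrays.

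The members did not move as 1 group. A set around Isg15 and its conjugating enzyme Ube2l6 stood higher on day 10 than on day 0 and fell between days 20 and 25, while a larger set that includes Rtp4, Zbp1, Parp14 and Ifitm2 stood lower after inoculation. On day 10, 5 members were higher and 9 lower at an adjusted p under 0.05 in limma, against 5.02% of all genes higher and 9.05% lower. On day 15, 2 were higher and 9 lower, beside 2.60% and 5.12% of all genes. On day 20 the counts were 1 higher and 5 lower, beside 1.52% and 2.67%. Between days 20 and 25, 2 members rose and 6 fell, beside 11.8% and 13.3% of all genes. Falls were thus about as common among all genes as among the members.

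No member passed on day 25 against day 0, where 0.0461% of all genes were higher and 0.152% lower. At an unadjusted p under 0.05, 1 member was higher and 12 were lower on that day, beside 8.20% and 9.36% of all genes. With the mouse as a block, which pairs the samples of each animal, 4 members passed on day 25, namely Ifi211 (0.48, adjusted p = 0.0494), Ifitm3 (-0.33, adjusted p = 0.0304), Oas3 (-0.64, adjusted p = 0.0499) and Oasl2 (-1.01, adjusted p = 0.0366), beside 0.250% of all genes higher and 1.22% lower in that fit. The F test over the 5 days called 17 of the 40 members, beside 31.0% of all genes, and with the mouse as a block 19, beside 32.2%, with Ifit1 (adjusted p = 0.0374) and Samhd1 (adjusted p = 0.0415) added. The median change of the 40 members was -0.13, -0.19, -0.13 and -0.15 on days 10, 15, 20 and 25 against day 0, and 0.058 from day 20 to day 25, while the median of all genes was -0.022, -0.015, -0.021, -0.0005 and 0.037. Without mouse 305 of day 0 the members' medians on days 10, 15, 20 and 25 were -0.040, -0.14, -0.049 and -0.043. That from day 20 to day 25 was 0.026 and 0.027 without mice 305 and 315 of day 20, and -0.0089 without mouse 315 of day 25. Centring each array on its median gave -0.96, -0.89, -0.65, -0.32 and 0.50 for the 5 comparisons. Above 0 were 13, 7, 11 and 10 of the 40 members on the 4 days, or 32.5%, 17.5%, 27.5% and 25.0%, against 43.3%, 41.4%, 43.7% and 49.7% of all genes.

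The calls higher than day 0 rest on the normalization. When each array was centred on its median instead of loess-normalized, all genes together had a median change of -0.47 on day 10, -0.35 on day 15, -0.26 on day 20 and 0.28 from day 20 to day 25, and every member called higher than day 0 took a change below 0. All 23 calls lower than day 0 stayed below 0. The downward shift of all genes favours that sign, so this is no check on them. The lower calls of days 15 and 20 were lost with the median (limma adjusted p 0.0568 and 0.246), while those of day 10 were kept. Of the 39 calls in the 5 comparisons 30 kept their sign and 9 turned, and relative to the median of all genes 4 of those 9 turned. With that setting 27 members were called lower on day 10, beside 46.8% of all genes. The 320 spike-in spots changed, after loess, by 0.55, 0.33, 0.15 and -0.52 on days 10, 15, 20 and 25. From day 20 to day 25 they changed by -0.67. The called changes of Isg15 on days 10 and 15 and to day 25 had the same signs as these shifts. The part of the shifts in the members' changes was not tested. Where a call below is said to be lost, the arrays and settings that ended it are named beside it, except the median, which is given only where it turned the sign.

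**Figure D1:**
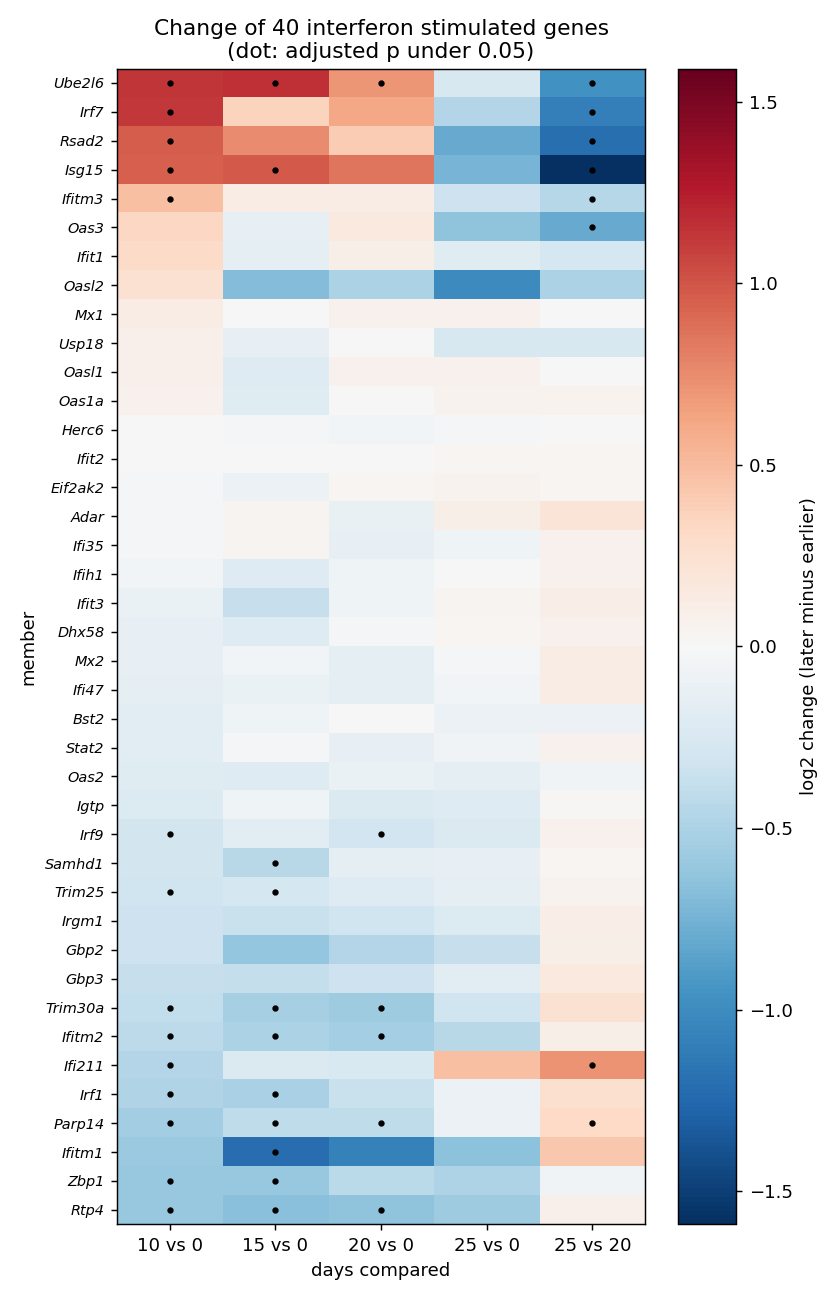
Log2 change of each of the 40 members (rows, ordered by their day 10 change) in 5 comparisons (columns), from blue for lower to red for higher on the later day, after loess; a black dot marks an adjusted p under 0.05 in limma. With arrays centred on their median, every red cell with a dot against day 0 falls below 0. Against day 0, dots on red are few and lie at the top, with 5 on day 10, 2 on day 15 and 1 on day 20, and the day 25 against day 0 column has none.

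The conjugation of ISG15 to proteins needs an activating enzyme, the conjugating enzyme UBE2L6 and a ligase, which is HERC6 in the mouse, and USP18 removes it again. Values are given throughout in the order of mice 305, 310, 315 and 320. Isg15, the modifier itself, stood at -0.50, -0.22, -0.30 and 0.71 on day 0, 0.75, 0.89, 1.14 and 0.74 on day 10, and 0.68, 1.04, 1.25 and 0.62 on day 15. It stood at 0.33, 0.82, 1.12 and 0.82 on day 20, and -1.41, -0.51, -0.73 and -0.62 on day 25. On day 0 mouse 320 lay above 0 and the other mice below it, on days 10 to 20 all 12 arrays were above 0, and on day 25 all 4 were below. Isg15 was higher than on day 0 by 0.96 (SE 0.24, adjusted p = 0.0142) on day 10, 1.94-fold, and by 0.97 (SE 0.24, adjusted p = 0.0164) on day 15. Under median centring the 2 changes were -0.48 and -0.38, or -0.015 and -0.026 relative to the median of all genes. The day 10 values lay above all of day 0, while those of day 15 overlapped it through mouse 320. On day 20 the difference from day 0 was 0.85 (SE 0.24, adjusted p = 0.0517), and with the mouse as a block it passed (0.85, adjusted p = 0.0173). From day 20 to day 25 Isg15 fell in all 4 mice, with a change of -1.59 (SE 0.24, adjusted p = 0.00157), 3.01-fold, and the groups did not overlap. Isg15 lost its day 10 call without day 0 mouse 305 or day 10 mouse 315 in turn (change 0.82 and adjusted p 0.0638 without day 0 mouse 305) and with scaling between arrays (change 1.26, adjusted p 0.426). The day 15 call was lost without day 0 mice 305 and 315 or day 15 mouse 315 in turn (change 0.83 and adjusted p 0.0723 without day 0 mouse 305), and scaling between arrays gave a change of 3.58 (adjusted p 0.0185). The fall to day 25 was lost with scaling between arrays (change -1.47, adjusted p 0.458).

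Ube2l6, the conjugating enzyme for ISG15, stood at -0.80, -0.26, -0.35 and 0.31 on day 0, 1.13, 0.59, 1.02 and 0.69 on day 10, and 0.74, 0.90, 0.78 and 1.11 on day 15. Later it stood at 0.26, 0.46, 0.45 and 0.56 on day 20, and -0.82, -0.49, -0.69 and -0.13 on day 25. All 8 arrays of days 10 and 15 lay above all 4 of day 0, and on day 20 only mouse 305 lay below the highest day 0 value. Ube2l6 was higher than on day 0 by 1.13 (SE 0.19, adjusted p = 0.00148) on day 10, by 1.16 (SE 0.19, adjusted p = 0.00116) on day 15 and by 0.71 (SE 0.19, adjusted p = 0.0399) on day 20. Median centring turned these to -0.42, -0.34 and -0.24, which relative to the median of all genes were 0.052, 0.010 and 0.023. It fell from day 20 to day 25, with a change of -0.97 (SE 0.19, adjusted p = 0.00329) and without overlap, to values that overlapped day 0. Ube2l6 lost its day 10 call with scaling between arrays (change 1.29, adjusted p 0.251), and that of day 15 was lost with the median alone, while scaling between arrays gave a change of 3.46 (adjusted p 0.00384). On day 10 the scanner software's log ratio gave 0.73 (adjusted p 0.00126). The day 20 call was lost without day 0 mice 305, 310 and 315, day 15 mouse 315 or day 20 mice 310, 315 and 320 in turn (change 0.53 and adjusted p 0.135 without day 0 mouse 305) and with scaling between arrays (change 0.64, adjusted p 0.722) or no filter on dim probes (change 0.71, adjusted p 0.0603). The fall to day 25 was lost with scaling between arrays (change -1.2, adjusted p 0.405).

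The other members of the ISG15 cycle, Herc6 and Usp18, passed in no comparison. Herc6, the ligase, which the array names Herc5, differed from day 0 by 0.0063, -0.033, -0.038 and -0.034 on days 10, 15, 20 and 25. A second, dimmer probe of Herc6, well above background on 15 arrays, differed by 0.16, 0.080, 0.037 and 0.11. Usp18, the protease that also restrains the type I receptor, differed by 0.081, -0.13, 0.00020 and -0.25. Uba7, the activating enzyme, which is not a member, rose from day 20 to day 25 by 0.37 (SE 0.11, adjusted p = 0.0220), opposite to Isg15 and Ube2l6.

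Among the transcription factors, Irf7, which amplifies the type I interferon response, stood at 0.20, 0.063, 0.10 and 0.96 on day 0, 1.23, 1.34, 1.6 and 1.64 on day 10, and 0.20, 1.37, 0.44 and 0.75 on day 15. On the later days it stood at 0.32, 1.25, 1.29 and 0.95 on day 20, and -0.35, -0.027, -0.19 and 0.013 on day 25. Mouse 320 was set apart on day 0, all 4 arrays of day 10 lay above all of day 0, and all 4 of day 25 lay below all of day 0. Irf7 was higher on day 10 by 1.12 (SE 0.24, adjusted p = 0.00641), 2.17-fold, though under median centring its change was -0.030, or 0.44 relative to all genes. The differences of 0.36 on day 15 and 0.62 on day 20 did not pass. It fell from day 20 to day 25, with a change of -1.09 (SE 0.24, adjusted p = 0.00594), without overlap. Irf7 lost its day 10 call with scaling between arrays (change 1.34, adjusted p 0.0936), and the fall to day 25 with scaling between arrays (change -0.55, adjusted p 0.576).

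Irf1, a factor that interferon gamma induces strongly, moved the other way, with 0.96, 0.58, 0.57 and -0.014 on day 0, -0.11, 0.047, 0.056 and 0.19 on day 10, and 0.18, -0.075, -0.095 and 0.0097 on day 15. Its values were 0.19, 0.24, -0.012 and 0.27 on day 20, and 0.20, 0.42, 0.54 and 0.55 on day 25. It was lower than on day 0, with changes of -0.48 (SE 0.14, adjusted p = 0.0333) on day 10 and -0.52 (SE 0.14, adjusted p = 0.0305) on day 15, in 3 of 4 mice each time, and the groups overlapped through mouse 320 of day 0. Irf1 lost its day 10 call without day 0 mice 305, 310 and 315 or day 10 mice 305 and 315 in turn (change -0.33 and adjusted p 0.138 without day 0 mouse 305) and with the scanner software's log ratio (change -0.43, adjusted p 0.0570), scaling between arrays (change -0.65, adjusted p 0.373), no filter on dim probes (change -0.48, adjusted p 0.0544) or the mean of its kept probes (change -0.25, adjusted p 0.0693). The day 15 call was lost without day 0 mice 305, 310 and 315 or day 15 mice 310, 315 and 320 in turn (change -0.37 and adjusted p 0.130 without day 0 mouse 305) and with scaling between arrays (change -0.55, adjusted p 0.413), no filter on dim probes (change -0.52, adjusted p 0.0501) or the mean of its kept probes (change -0.27, adjusted p 0.0769). A second, dimmer probe of Irf1 changed by only -0.019 and -0.028 on the 2 days.

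Irf9, the DNA-binding subunit of the type I complex, stood at 0.45, 0.022, 0.031 and 0.24 on day 0, -0.22, -0.069, -0.058 and -0.066 on day 10, and 0.023, 0.010, 0.011 and -0.050 on day 15. It then stood at -0.044, -0.26, -0.23 and 0.054 on day 20, and -0.058, 0, -0.036 and -0.10 on day 25. It was lower than on day 0, with changes of -0.29 (SE 0.083, adjusted p = 0.0266) on day 10, without overlap, and -0.30 (SE 0.083, adjusted p = 0.0466) on day 20. Irf9 lost its day 10 call without day 0 mouse 305 or day 10 mice 305, 315 and 320 in turn (change -0.20 and adjusted p 0.112 without day 0 mouse 305) and with the mean of its kept probes (change -0.14, adjusted p 0.124). The day 20 call was lost without day 0 mice 305 and 320, day 10 mice 305, 310 and 315, day 15 mice 305, 310, 315 and 320, day 20 mice 310 and 315 or day 25 mice 310, 315 and 320 in turn (change -0.27 and adjusted p 0.158 without day 20 mouse 315) and with the scanner software's log ratio (change -0.30, adjusted p 0.0684), scaling between arrays (change -0.22, adjusted p 0.0680), no filter on dim probes (change -0.30, adjusted p 0.0651) or the mean of its kept probes (change -0.17, adjusted p 0.0955). Its second probe, well above background on 4 arrays, changed by 0.013 and -0.035. Stat2, the other specific subunit of that complex, differed from day 0 by -0.18, -0.018, -0.13 and -0.062 on days 10, 15, 20 and 25, and none of these passed.

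**Figure D2:**
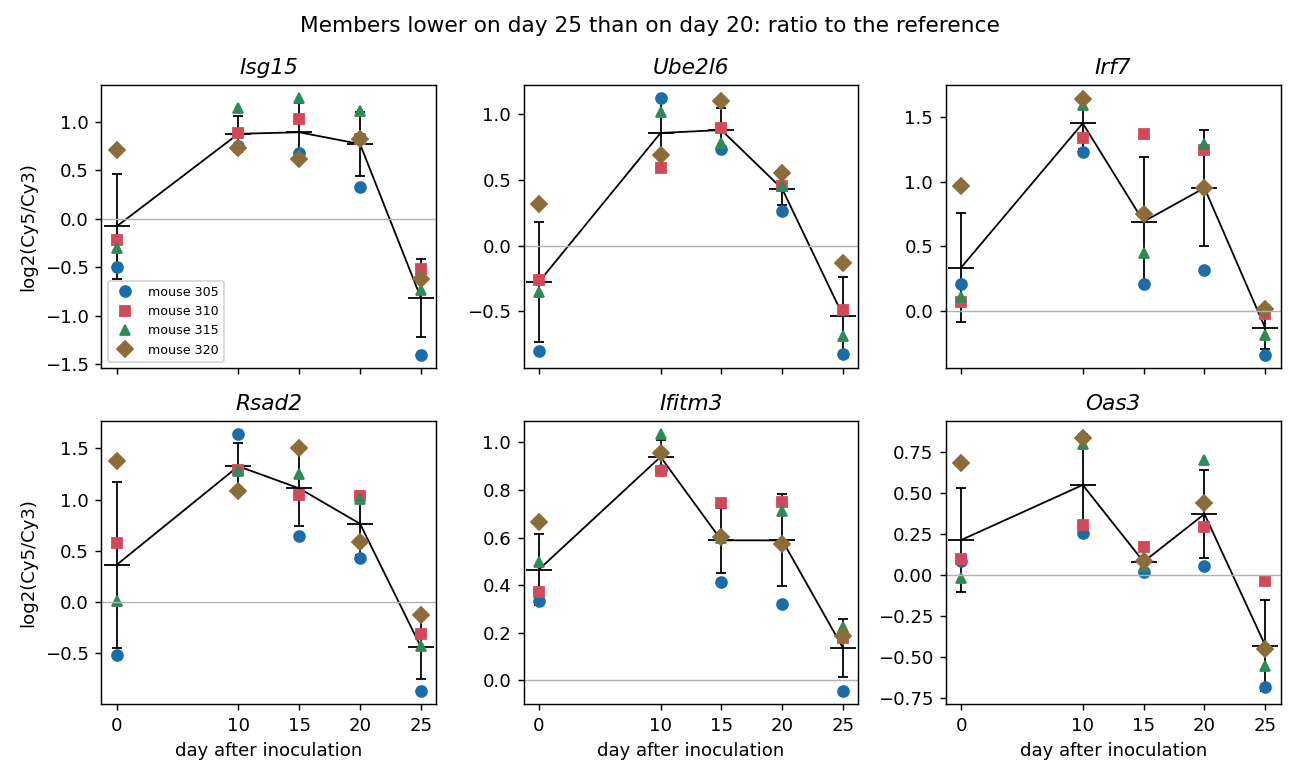
Log2 ratio of sample over reference (vertical axis) by day (horizontal axis) for the 6 members that fell from day 20 to day 25, with 1 symbol per mouse and the mean and SD of the 4 mice in black. For Isg15 all arrays of days 10 to 20 lie above 0 and all of day 25 below it; the levels above day 0 hold after loess and turn when arrays are centred on their median.

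Rsad2, or viperin, an enzyme of the endoplasmic reticulum that makes a chain terminator of viral RNA synthesis, had the brightest probe of the members. It stood at -0.51, 0.58, 0.012 and 1.38 on day 0, 1.64, 1.29, 1.28 and 1.09 on day 10, and 0.64, 1.05, 1.25 and 1.5 on day 15. It stood at 0.43, 1.03, 1.0 and 0.59 on day 20, and -0.87, -0.31, -0.43 and -0.13 on day 25. Day 0 was widely spread, from mouse 305 below 0 to mouse 320 within the range of day 10, so that the 2 days overlapped. Rsad2 was higher on day 10 by 0.96 (SE 0.29, adjusted p = 0.0359), in 3 of 4 mice, and median centring gave -0.62, or -0.15 relative to all genes. Differences of 0.75 and 0.40 on days 15 and 20 did not pass. It fell from day 20 to day 25, with a change of -1.2 (SE 0.29, adjusted p = 0.00900), in all 4 mice and without overlap. The 2 other probes of Rsad2 changed by 0.52 and 0.47 on day 10 and by -1.03 and -1.04 from day 20 to day 25. Rsad2 lost its day 10 call without day 0 mice 305, 310 and 315 or day 10 mice 305, 315 and 320 in turn (change 0.67 and adjusted p 0.149 without day 0 mouse 305) and with the scanner software's log ratio (change 0.38, adjusted p 0.206), scaling between arrays (change 1.24, adjusted p 0.396), no filter on dim probes (change 0.96, adjusted p 0.0600) or the mean of its kept probes (change 0.65, adjusted p 0.0733). The fall to day 25 was lost with scaling between arrays (change -1.09, adjusted p 0.549).

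The OAS enzymes make 2′-5′ linked oligoadenylates, which activate RNase L. Oas3 stood at 0.087, 0.10, -0.016 and 0.69 on day 0, 0.26, 0.31, 0.80 and 0.83 on day 10, and 0.017, 0.17, 0.055 and 0.086 on day 15. Its later values were 0.058, 0.29, 0.70 and 0.44 on day 20, and -0.68, -0.034, -0.55 and -0.45 on day 25. On day 25 all 4 arrays lay below 0 and below every other day. Oas3 fell from day 20 to day 25, with a change of -0.80 (SE 0.17, adjusted p = 0.00515), and its differences from day 0 of 0.34 on day 10 and -0.64 on day 25 did not pass. The fall was lost with scaling between arrays (change -0.33, adjusted p 0.222), and a second probe, well above background on 4 arrays, changed by -0.092. The scanner software's log ratio gave a change of -1.38 (adjusted p 0.00201) and the mean of both probes -0.45 (adjusted p 0.00692).

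Oasl2, which carries ubiquitin-like domains, passed the F test over days but no single comparison. Its values were 1.62, 1.83, 1.13 and 2.01 on day 0, 1.32, 1.95, 2.06 and 2.25 on day 10, and 0.40, 1.4, 0.74 and 1.27 on day 15. They were 0.75, 1.47, 1.37 and 0.96 on day 20, and 0.29, 0.25, 1.2 and 0.79 on day 25. All 20 arrays lay above the reference, and day 25 held the lowest 2 values. The differences from day 0 were 0.25, -0.69, -0.51 and -1.01 on days 10, 15, 20 and 25. Oas1a differed by 0.068, -0.19, -0.0039 and 0.051, Oas2 by -0.20, -0.20, -0.10 and -0.16 and Oasl1 by 0.080, -0.21, 0.074 and 0.069 on the same days, and none passed. With the mouse as a block Oas2 passed on day 10 (-0.20, adjusted p = 0.0475).

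Other effectors of the antiviral state passed in no comparison with day 0. The IFIT proteins bind foreign 5′ ends of RNA: Ifit1 differed from day 0 by 0.30, -0.16, 0.088 and -0.19 on days 10, 15, 20 and 25, Ifit2 by -0.0032, -0.0032, -0.0046 and 0.026 and Ifit3 by -0.11, -0.37, -0.065 and 0.044. The dynamin-like GTPases Mx1 and Mx2 differed by 0.12, -0.0042, 0.072 and 0.072 and by -0.13, -0.049, -0.15 and -0.032, with the day 15 value of Mx1 not well above background. Eif2ak2, the kinase PKR that stops translation, differed by -0.016, -0.099, 0.032 and 0.061. Adar, which edits double-stranded RNA, differed by -0.021, 0.048, -0.12 and 0.093. Bst2, or tetherin, which holds budding virus at the membrane, differed by -0.18, -0.069, -0.0097 and -0.098.

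Samhd1, which depletes the nucleotides of reverse transcription, was the further effector that passed. It stood at 0.89, 0.091, 0.18 and 0.22 on day 0, -0.030, -0.036, 0.19 and 0.10 on day 10, and -0.0049, -0.26, -0.052 and -0.093 on day 15. It stood at 0.18, 0.22, 0.19 and 0.19 on day 20, and 0.40, 0.066, 0.32 and 0.094 on day 25. Mouse 305 was far above the others on day 0, and all 4 arrays of day 15 lay below all of day 0. The day 15 change was -0.45 (SE 0.13, adjusted p = 0.0360), and the call was lost without day 0 mouse 305 or day 15 mice 310, 315 and 320 in turn (change -0.40 and adjusted p 0.118 without day 15 mouse 310) and with no filter on dim probes (change -0.45, adjusted p 0.0592) or the mean of its kept probes (change -0.30, adjusted p 0.0724), and without day 0 mouse 305 the change was -0.27 (adjusted p 0.0768). A second probe of Samhd1 changed by -0.16 on day 15. Without the mouse as a block, Samhd1 did not pass the F test over days (adjusted p = 0.0685).

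The IFITM proteins, which block viral fusion, did not move together. Ifitm3 stood at 0.33, 0.37, 0.50 and 0.66 on day 0, 0.89, 0.88, 1.04 and 0.96 on day 10, and 0.41, 0.74, 0.60 and 0.60 on day 15. On the later days it stood at 0.32, 0.75, 0.71 and 0.57 on day 20, and -0.046, 0.18, 0.22 and 0.19 on day 25. Its day 10 values lay above and its day 25 values below all of day 0. Ifitm3 was higher on day 10 by 0.47 (SE 0.095, adjusted p = 0.00436), with -0.95 under the median setting, or -0.48 relative to all genes. It fell from day 20 to day 25, with a change of -0.45 (SE 0.095, adjusted p = 0.00447), with 0.23 under the median setting, or -0.043 relative to all genes. Its day 10 call was lost with scaling between arrays (change 0.48, adjusted p 0.562) and its fall with scaling between arrays (change -0.034, adjusted p 0.977), and neither was lost without any 1 array.

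Ifitm2 stood at 0.51, 0.49, 0.27 and 0.68 on day 0, -0.17, 0.051, 0.26 and 0.17 on day 10, and 0.0035, -0.038, 0.014 and -0.043 on day 15. Its later values were -0.025, 0.23, -0.12 and -0.30 on day 20, and 0.24, -0.00050, 0.11 and -0.18 on day 25. All 16 arrays after inoculation lay below all 4 of day 0. Ifitm2 was lower than on day 0, with changes of -0.41 (SE 0.11, adjusted p = 0.0226) on day 10, -0.51 (SE 0.11, adjusted p = 0.00948) on day 15 and -0.54 (SE 0.11, adjusted p = 0.0145) on day 20, and the difference of -0.45 on day 25 had an adjusted p of 0.0853. A second probe of Ifitm2 changed by -0.21, -0.26, -0.32 and -0.28 on the 4 days. Ifitm2 lost its day 10 call without day 0 mice 305 and 320 or day 10 mouse 305 in turn (change -0.33 and adjusted p 0.0812 without day 10 mouse 305) and with the mean of its kept probes (change -0.31, adjusted p 0.0527), and the day 20 call without day 20 mice 315 and 320 in turn (change -0.52 and adjusted p 0.0640 without day 20 mouse 315). The scanner software's log ratio gave larger changes of -0.66 (adjusted p 0.00472), -0.81 (adjusted p 0.000683) and -0.91 (adjusted p 0.00260).

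Ifitm1 had the widest spread of the 3, with 1.31, 1.72, 0.87 and 1.63 on day 0, 0.045, 0.51, 1.57 and 1.04 on day 10, and 0.21, 0.042, 0.14 and 0.30 on day 15. It stood at 0.15, 1.07, -0.10 and 0.096 on day 20, and 0.34, 0.14, 1.51 and 0.94 on day 25. The lowest value of day 0, in mouse 315, lay above all 4 of day 15. The day 15 change was -1.21 (SE 0.32, adjusted p = 0.0258), 2.31-fold lower, and that of day 20 was -1.08 (SE 0.32, adjusted p = 0.0632), which passed with the mouse as a block (-1.08, adjusted p = 0.0479). The day 15 call was lost without day 0 mice 305 and 310 or day 15 mice 310, 315 and 320 in turn (change -1.1 and adjusted p 0.0828 without day 0 mouse 310).

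Sensors of nucleic acid were lower than on day 0 or did not pass against it. Zbp1, which binds Z-form nucleic acid and can start necroptosis, stood at 1.11, 0.31, 0.34 and 0.42 on day 0, -0.25, 0.015, -0.011 and 0.030 on day 10, and -0.0017, 0.039, -0.039 and -0.20 on day 15. It stood at 0.18, 0.11, -0.0058 and 0.19 on day 20, and -0.25, 0.045, 0.32 and 0.10 on day 25. Mouse 305 was set apart on day 0, yet every array of days 10, 15 and 20 lay below every array of day 0. The changes were -0.60 (SE 0.14, adjusted p = 0.0104) on day 10 and -0.60 (SE 0.14, adjusted p = 0.0131) on day 15, in all 4 mice, and on day 20 -0.43 (SE 0.14, adjusted p = 0.0823). No left-out array and no setting run ended the day 10 call, and that of day 15 was lost without day 15 mouse 320 (change -0.55, adjusted p 0.0525).

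Ifi211, a member of the family of DNA-binding HIN proteins that the array names Mnda, stood at 0.20, -0.022, -0.11 and -0.39 on day 0, -0.63, -0.41, -0.68 and -0.47 on day 10, and -0.22, -0.26, -0.27 and -0.48 on day 15. It stood at -0.014, -0.30, -0.72 and -0.26 on day 20, and 0.43, 0.35, 0.44 and 0.37 on day 25. The 4 arrays of day 25 lay above all other arrays. Ifi211 was lower on day 10, with a change of -0.47 (SE 0.12, adjusted p = 0.0186), and rose from day 20 to day 25 by 0.72 (SE 0.12, adjusted p = 0.00213), without overlap in either case. Ifi211 lost its day 10 call without day 0 mouse 305 or day 10 mice 305 and 315 in turn (change -0.38 and adjusted p 0.0827 without day 0 mouse 305) and with scaling between arrays (change -0.47, adjusted p 0.435). The rise to day 25 was lost with scaling between arrays (change 0.78, adjusted p 0.328). Near-identical genes lie in this family, so the probe may not be specific to 1 of them.

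Trim25, a ubiquitin ligase that activates RIG-I, stood at 0.059, 0.087, 0.047 and 0.22 on day 0, -0.34, -0.12, -0.19 and -0.18 on day 10, and -0.039, -0.16, -0.12 and -0.40 on day 15. It stood at 0.067, -0.070, -0.22 and -0.16 on day 20, and 0.047, 0.017, -0.035 and -0.17 on day 25. All 8 arrays of days 10 and 15 lay below all of day 0. It was lower, with changes of -0.31 (SE 0.078, adjusted p = 0.0146) on day 10 and -0.29 (SE 0.078, adjusted p = 0.0305) on day 15, but a second probe changed by 0.065 and -0.11. Trim25 lost its day 10 call without day 10 mouse 305 (change -0.27, adjusted p 0.0547) and with the scanner software's log ratio (change -0.26, adjusted p 0.0703), scaling between arrays (change -0.33, adjusted p 0.0962) or the mean of its kept probes (change -0.12, adjusted p 0.186). The day 15 call was lost without day 0 mice 305, 310 and 320 or day 15 mice 310 and 320 in turn (change -0.21 and adjusted p 0.135 without day 15 mouse 320) and with the mean of its kept probes (change -0.20, adjusted p 0.0602), and scaling between arrays gave -0.62 (adjusted p 0.00343). Ifih1, or MDA5, a sensor of long double-stranded RNA, differed from day 0 by -0.040, -0.20, -0.067 and 0.0046 on days 10, 15, 20 and 25 and Dhx58, or LGP2, its regulator, by -0.13, -0.20, -0.032 and 0.035, and neither passed.

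**Figure D3:**
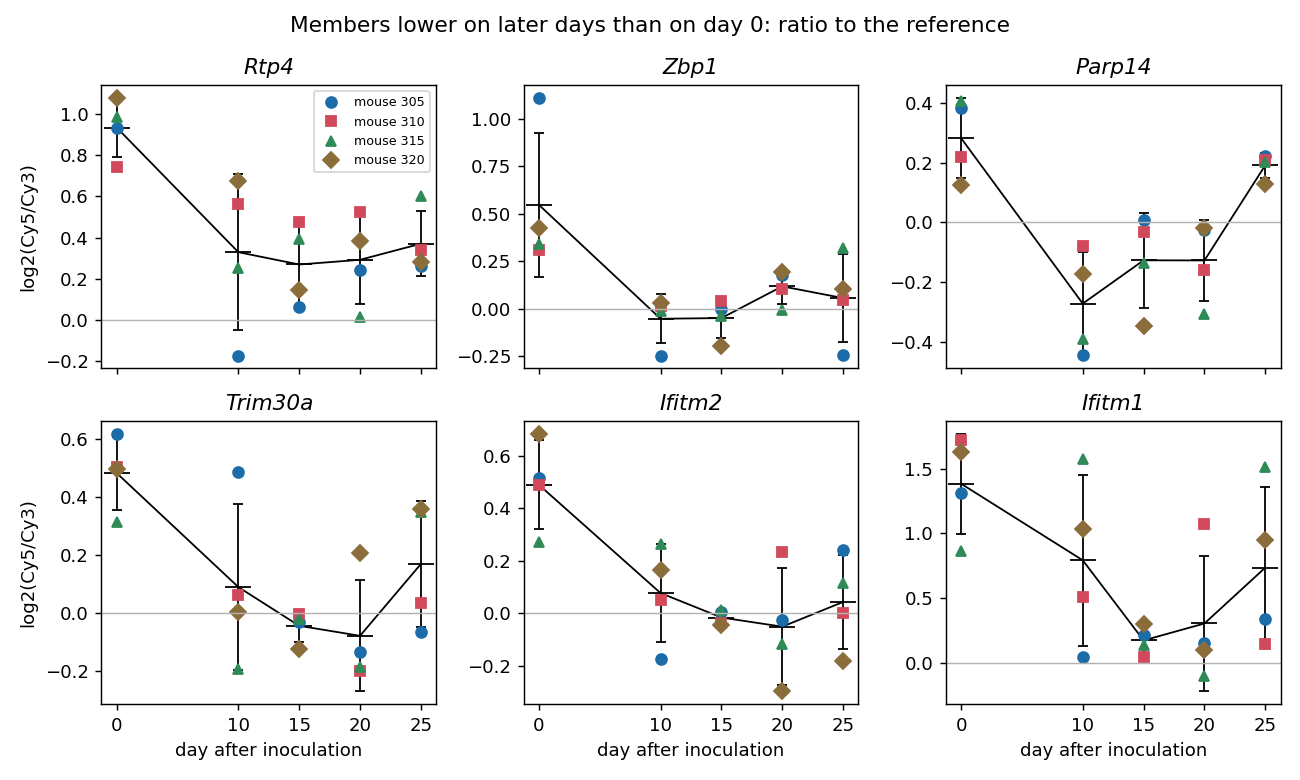
Log2 ratio of sample over reference (vertical axis) by day (horizontal axis) for 6 members that were lower than on day 0 in at least 1 comparison, with 1 symbol per mouse and the mean and SD of the 4 mice in black. All later arrays of Ifitm2 lie below all 4 of day 0, and those of Rtp4 also.

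Further targets with less settled antiviral roles held several of the lower members. Rtp4, a chaperone of receptor transport, stood at 0.94, 0.74, 0.98 and 1.08 on day 0, -0.17, 0.57, 0.25 and 0.67 on day 10, and 0.061, 0.48, 0.39 and 0.15 on day 15. It stood at 0.24, 0.52, 0.017 and 0.38 on day 20, and 0.26, 0.34, 0.60 and 0.28 on day 25. All 16 later arrays lay below all 4 of day 0. The changes were -0.61 (SE 0.15, adjusted p = 0.0149) on day 10, -0.67 (SE 0.15, adjusted p = 0.0110) on day 15, -0.64 (SE 0.15, adjusted p = 0.0268) on day 20 and -0.56 (SE 0.15, adjusted p = 0.0989) on day 25. Rtp4 lost its day 10 call without day 10 mouse 305 (change -0.44, adjusted p 0.0507) and with scaling between arrays (change -0.77, adjusted p 0.353). The day 15 call was lost with the scanner software's log ratio (change -0.44, adjusted p 0.0640) or scaling between arrays (change -0.41, adjusted p 0.601). The day 20 call was lost without day 0 mice 305 and 315 or day 20 mice 315 and 320 in turn (change -0.55 and adjusted p 0.114 without day 20 mouse 315) and with scaling between arrays (change -1.03, adjusted p 0.353).

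Parp14, an ADP-ribosyltransferase, stood at 0.38, 0.22, 0.41 and 0.12 on day 0, -0.44, -0.079, -0.39 and -0.17 on day 10, and 0.0070, -0.032, -0.13 and -0.35 on day 15. It stood at -0.025, -0.16, -0.31 and -0.019 on day 20, and 0.22, 0.21, 0.20 and 0.13 on day 25. All 12 arrays of days 10 to 20 lay below all 4 of day 0 and below all 4 of day 25. It was lower, with changes of -0.55 (SE 0.093, adjusted p = 0.00171), -0.41 (SE 0.093, adjusted p = 0.0101) and -0.41 (SE 0.093, adjusted p = 0.0206) on days 10, 15 and 20 and rose from day 20 to day 25 by 0.32 (SE 0.093, adjusted p = 0.0203). A second kept probe changed by -0.18, -0.036 and -0.012 on the first 3 of these and by -0.052 in the last. Parp14 lost its day 10 call with scaling between arrays (change -0.66, adjusted p 0.116), and the day 15 call with the mean of its kept probes (change -0.22, adjusted p 0.0504). The day 20 call was lost without day 0 mice 305 and 315 or day 20 mice 310 and 315 in turn (change -0.35 and adjusted p 0.0935 without day 20 mouse 315) and with the scanner software's log ratio (change -0.25, adjusted p 0.159), scaling between arrays (change -0.47, adjusted p 0.403) or the mean of its kept probes (change -0.21, adjusted p 0.0725). The rise to day 25 was lost without day 20 mouse 315 or day 25 mouse 305 in turn (change 0.26 and adjusted p 0.0750 without day 20 mouse 315) and with the scanner software's log ratio (change 0.19, adjusted p 0.241), scaling between arrays (change 0.44, adjusted p 0.405) or the mean of its kept probes (change 0.13, adjusted p 0.134). For kept calls of Parp14, scaling between arrays gave -0.81 (adjusted p 0.0380) on day 15 and the mean of its probes -0.37 (adjusted p 0.00265) on day 10.

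Trim30a, which restrains Toll-like receptor signalling, stood at 0.62, 0.50, 0.31 and 0.50 on day 0, 0.49, 0.062, -0.19 and 0.0042 on day 10, and -0.031, -0.00080, -0.018 and -0.12 on day 15. It stood at -0.13, -0.20, -0.19 and 0.21 on day 20, and -0.064, 0.035, 0.35 and 0.36 on day 25. Day 10 overlapped day 0 through mouse 305, and days 15 and 20 did not overlap it. It was lower, with changes of -0.39 (SE 0.13, adjusted p = 0.0455) on day 10, -0.53 (SE 0.13, adjusted p = 0.0141) on day 15 and -0.56 (SE 0.13, adjusted p = 0.0203) on day 20, and a second probe changed by -0.45, -0.30 and -0.45. Trim30a lost its day 10 call without day 0 mice 305, 310 and 320, day 10 mice 310, 315 and 320, day 15 mice 305, 310, 315 and 320 or day 20 mice 310 and 315 in turn (change -0.30 and adjusted p 0.159 without day 10 mouse 315) and with the scanner software's log ratio (change -0.49, adjusted p 0.0597) or no filter on dim probes (change -0.39, adjusted p 0.0749). The day 15 call was lost without day 0 mouse 305 or day 15 mouse 320 in turn (change -0.48 and adjusted p 0.0561 without day 0 mouse 305), and the day 20 call without day 0 mice 305 and 310 or day 20 mice 310 and 315 in turn (change -0.52 and adjusted p 0.0826 without day 20 mouse 315). Ifi35, which is found in complexes with NMI, differed from day 0 by -0.033, 0.040, -0.14 and -0.070 and passed in none. With the scanner software's log ratio the day 15 change of Trim30a was -0.98 (adjusted p 0.000852).

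The GTPases that interferon gamma induces against intracellular pathogens passed in no comparison. Gbp2 differed from day 0 by -0.33, -0.62, -0.47 and -0.37 on days 10, 15, 20 and 25, and Gbp3 by -0.37, -0.38, -0.33 and -0.17. The immunity-related GTPases Irgm1, Igtp and Ifi47 differed by -0.33, -0.35, -0.32 and -0.22, by -0.22, -0.066, -0.23 and -0.21 and by -0.16, -0.11, -0.15 and -0.043. On day 0 mouse 305 had the highest value of all 5. Gbp2 of that array was 1.64, against 0.30 to 0.52 in the other mice.

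The promoters of members were searched in the RefSeq table of GRCm38.p6, which gives 250 bases before and 50 after each start and held 32 of the 40 members. A core of the interferon stimulated response element, GAAA followed after a gap of any 2 bases by GAAA again, was searched on both strands and reads as repeated TTTC on the other. It was present for 18 of the 32 members, 56.2%, against 3.44% of all 32851 promoters and 3.99% of 27025 genes. The palindrome TTCNNNGAA of the gamma activated sequence was present for 10 members, 31.2%, against 8.30% of promoters and 9.55% of genes. The 250 bases before the start are printed for 5 of the 6 members that fell together from day 20 to day 25, some with and some without the motif, on the strand of the gene, with the GAAA repeat, or its other strand, in capitals. They lie at chr4:156200819-156201068 (minus) for Isg15, chr12:26456453-26456702 (minus) for Rsad2, chr5:120777660-120777909 (minus) for Oas3, chr2:84798578-84798827 (plus) for Ube2l6 and chr7:141266425-141266674 (minus) for Irf7.
Isg15: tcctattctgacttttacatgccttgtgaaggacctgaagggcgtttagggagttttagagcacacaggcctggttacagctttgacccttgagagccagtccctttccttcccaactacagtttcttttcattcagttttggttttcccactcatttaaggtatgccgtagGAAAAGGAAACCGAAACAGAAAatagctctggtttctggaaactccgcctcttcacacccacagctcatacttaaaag
Rsad2: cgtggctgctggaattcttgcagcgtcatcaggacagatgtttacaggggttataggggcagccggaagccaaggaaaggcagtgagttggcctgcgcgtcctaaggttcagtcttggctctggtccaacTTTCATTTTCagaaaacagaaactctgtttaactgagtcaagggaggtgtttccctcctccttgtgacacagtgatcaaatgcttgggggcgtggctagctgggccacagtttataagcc
Oas3: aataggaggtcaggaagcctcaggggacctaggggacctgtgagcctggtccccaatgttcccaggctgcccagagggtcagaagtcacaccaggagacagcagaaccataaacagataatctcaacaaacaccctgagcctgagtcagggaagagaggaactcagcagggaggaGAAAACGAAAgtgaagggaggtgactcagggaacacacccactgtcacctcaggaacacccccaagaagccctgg
Ube2l6: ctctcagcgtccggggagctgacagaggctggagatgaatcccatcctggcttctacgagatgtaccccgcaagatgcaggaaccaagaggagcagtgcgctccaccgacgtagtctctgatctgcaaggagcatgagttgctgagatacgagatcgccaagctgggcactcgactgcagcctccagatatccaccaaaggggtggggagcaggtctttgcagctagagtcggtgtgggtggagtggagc
Irf7: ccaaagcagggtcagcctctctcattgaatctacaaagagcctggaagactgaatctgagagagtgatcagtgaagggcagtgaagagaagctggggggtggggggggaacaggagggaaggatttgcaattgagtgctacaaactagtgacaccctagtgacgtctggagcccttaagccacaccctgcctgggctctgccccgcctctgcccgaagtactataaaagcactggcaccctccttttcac
Isg15 has 3 overlapping matches, at positions -78, -72 and -66, where -1 is the base before the start site. Oas3 has 1, at -75, and Rsad2 has 1 on the other strand, at -120. The letters are not in the windows of Ube2l6 and Irf7, which moved in the same direction as Isg15 on day 10 and from day 20 to day 25. Ifitm3 is not printed, since its matches lie after the start, at 3 and 20. Among members that were lower, Ifitm2, Ifi211 and Trim30a hold the motif, and Irf1 and Samhd1 hold TTCNNNGAA. Ifitm1, Irf9 and Trim25 hold neither, and Rtp4, Zbp1 and Parp14 had no promoter to search. A match is a description of the letters and not a measured site.

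The rest of the interferon pathway, from a list of 58 further genes, was counted in the same fit. Of the 3 kept ligand genes none passed against day 0, and Ifna2 fell from day 20 to day 25, with a change of -0.24 (SE 0.081, adjusted p = 0.0365). Of 7 receptor and kinase genes, Ifngr1, a chain of the interferon gamma receptor, was lower, with changes of -0.58 (SE 0.12, adjusted p = 0.00536) on day 10, -0.90 (SE 0.12, adjusted p = 0.000451) on day 15 and -0.66 (SE 0.12, adjusted p = 0.00717) on day 20. No other gene of that list passed against day 0. Of 5 factors, 2 were lower on day 10 and 1 on day 15, none passed on days 20 and 25 against day 0, and 1 rose from day 20 to day 25. Irf2, which competes with IRF1, was among those lower on day 10, with -0.30 (SE 0.086, adjusted p = 0.0260).

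Among 7 kept sensors and adaptors, 2 were higher and 2 lower on days 10 and 15. Mavs, the mitochondrial adaptor of the RNA sensors, was higher on day 10 by 0.67 (SE 0.16, adjusted p = 0.0118) and on day 15 by 0.80 (SE 0.16, adjusted p = 0.00537), and it fell from day 20 to day 25, with a change of -0.83 (SE 0.16, adjusted p = 0.00359). Myd88, the adaptor of most Toll-like receptors, was lower on days 10, 15 and 20, with a day 20 change of -0.32 (SE 0.086, adjusted p = 0.0457). Of 5 feedback genes, 3 were lower on day 10, 2 on day 15, 1 on day 20 and 1 on day 25, and Socs3, which inhibits cytokine receptors, was lower on all 4 days, with changes of -0.64 (SE 0.14, adjusted p = 0.00579) on day 10 and -0.79 (SE 0.14, adjusted p = 0.0260) on day 25. Of 25 kept further targets, 1 was higher and 5 lower on day 10, 1 and 6 on day 15, 0 and 1 on day 20 and 0 and 0 on day 25, and 5 rose and 1 fell from day 20 to day 25. Isg20, an exonuclease of RNA, was the target that was higher on day 10, by 0.68 (SE 0.19, adjusted p = 0.0247), and that fell to day 25, with a change of -1.06 (SE 0.19, adjusted p = 0.00244). It was also higher on day 15, by 0.78 (SE 0.19, adjusted p = 0.0156). Ifi27, a small interferon induced protein of membranes, went the other way, with changes of -0.56 (SE 0.15, adjusted p = 0.0213) on day 10, -0.63 (SE 0.15, adjusted p = 0.0145) on day 15 and -0.69 (SE 0.15, adjusted p = 0.0180) on day 20, and rose from day 20 to day 25 by 0.86 (SE 0.15, adjusted p = 0.00227). Plac8 was lower on day 15, with -0.74 (SE 0.19, adjusted p = 0.0197). From day 20 to day 25 Ifi203, a HIN protein like Ifi211, rose by 0.64 (SE 0.14, adjusted p = 0.00538), and Ifngr1 rose by 0.47 (SE 0.12, adjusted p = 0.0120). Median centring turned the rises of Mavs (-0.74 on day 10 and -0.50 on day 15, or -0.27 and -0.15 relative to all genes) and Isg20 (-0.92 and -0.75, or -0.45 and -0.40), and left their falls to day 25 below 0. Uba7, Ifna2 and Irf2 lay outside the 5 largest changes of their comparisons and were picked with their values in view.

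Markers of blood cell types also changed over the days, and the 2 lists with most calls went in opposite directions. The mean of the 6 kept erythroid genes lay between -0.096 and 0.86 on day 0, 0.62 and 0.99 on day 10, 0.35 and 0.68 on day 15, 0.35 and 0.91 on day 20, and -0.75 and -0.20 on day 25. On day 10, 2 of the 6 were higher after loess, Eraf and Sptb, and took changes of -0.64 and -0.13 by median centring, which relative to the median of all genes were -0.17 and 0.34, and from day 20 to day 25 all 6 fell, with a change of -1.6 (SE 0.27, adjusted p = 0.00205) for Slc4a1, the anion exchanger of red cells. Mouse 320 had the highest value of day 0 for this list and also for Isg15, Ube2l6, Irf7, Rsad2, Ifitm3 and Oas3. The mean of the 9 kept mature neutrophil genes lay between 0.56 and 1.17 on day 0, -0.29 and 0.13 on day 10, -0.21 and 0.0645 on day 15, -0.53 and 0.17 on day 20, and 0.14 and 0.55 on day 25. On day 10, 7 of the 9 were lower, with a change of -2.03 (SE 0.27, adjusted p = 0.000745) for S100a9, a subunit of calprotectin, and 3 rose from day 20 to day 25. The part of either list in the changes of the members was not tested.

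**Figure D4:**
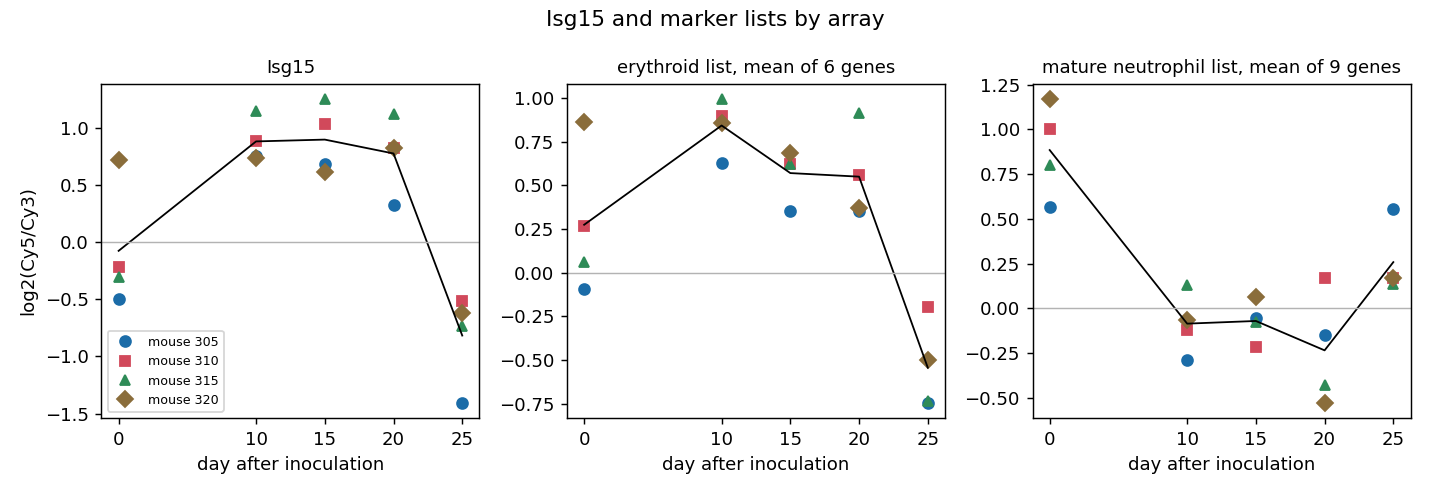
Log2 ratio of sample over reference by day for Isg15 (left), the mean of 6 erythroid genes (middle) and the mean of 9 mature neutrophil genes (right), with 1 symbol per mouse and a line through the means. The day 0 value of mouse 320 is the highest of its day in all 3 panels, and all 4 arrays of day 25 are below 0 for Isg15 and the erythroid genes.

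The other marker lists gave fewer calls. Of 8 monocyte genes 2 were lower on day 15 and none passed in the other comparisons, and of 7 T cell genes 2 were lower on day 15 and 1 rose from day 20 to day 25. The B cell genes gave no call against day 0, with 1 that rose and 1 that fell from day 20 to day 25, and neither did the 6 cytotoxic and NK cell genes nor the 4 genes of plasmacytoid dendritic cells, which are a rich source of type I interferon. Of 6 platelet genes 1 was higher on day 10, and of 4 hepatoma and liver genes 1, H19, was higher on day 10, by 0.19 (SE 0.058, adjusted p = 0.0358). By median centring the platelet gene Itga2b changed by -0.88 and H19 by -0.078, or -0.41 and 0.39 relative to all genes. From day 20 to day 25, 2 platelet genes rose, Ppbp by 0.74 (SE 0.23, adjusted p = 0.0284) and Treml1 by 0.80 (SE 0.24, adjusted p = 0.0233), and the median of the 6 platelet genes was 0.50.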

How the data were processed

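Blood RNA of 4 mice on 5 days was hybridised to 20 arrays. The deposited scanner files hold the mean and local background intensity of each spot in both channels, per the file headers, written by Agilent Feature Extraction 9.1.3.1 (submitters' processing notes). The log10 ratio of Cy5 to Cy3 that the authors deposited in the same files served as an alternative, and the deposited series matrix equalled it in 900360 of 900360 values. Further steps by the authors are not given in the sources used here.

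Intensities were corrected with normexp (offset 50) and normalized by loess in limma 3.58.1 (R 4.3.3, statmod 1.5.0). The loess gave no weight to 1486 positive or structural and 153 negative control spots. Non-uniform spots (10 to 248 an array) were left out after the normalization. Probes had to be well above background on at least 4 arrays and measured on at least 3 arrays a day, which left 20937, and the brightest probe stood for each of 15178 genes. One limma fit of 5 day means gave all tests, two-sided, with Benjamini-Hochberg adjustment over all genes and a threshold of 0.05; it was tested on simulated data. Of 41174 probes 23374 took their name by accession, 6733 by symbol and 2919 by synonym from a GRCm38.p6 gene table, and 8148 kept the file's name.

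The labels give day and mouse. Mouse numbers pair the arrays because the same animals were bled on every day. Deviations from day means correlated at 0.0872 on average over 40 pairs of 1 mouse (21 above 0.1), with a range of -0.42 to 0.54. Over 120 pairs of different mice the mean was -0.0296. That value follows largely from subtracting the day means, so the contrast is no separate evidence of pairing. Members passing the F test or any comparison are given with every array's value, and every kept member with its changes; of the wider pathway, genes that passed are named by the largest changes, at most 5 a comparison. The members, lists and tests were chosen with earlier results of these data known. Alternatives covered normalization, background, filter, probe choice, the mouse block and leaving out each array.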

Additional observations from a re-analysis of the deposited data

Results flagged for a closer look

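In 19 of 200 groups of 4 mice (40 members on 5 days), the highest or lowest array stood apart from the other 3 by Dixon's criterion, where chance alone would set apart about 10, 1 in 20.

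On day 0, mouse 305 stood high for Gbp2 (1.64, against 0.30 to 0.52 in the others), Samhd1 (0.89, against 0.091 to 0.22) and Zbp1 (1.11, against 0.31 to 0.43). Mouse 320 stood high on that day for Irf7 (0.96, against 0.063 to 0.20) and Oas3 (0.69, against -0.016 to 0.10). Mouse 315 stood low on day 0 for Ifih1 (0.068, against 0.26 to 0.29) and Mx2 (0.0020, against 0.077 to 0.088).

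On day 10, mouse 305 stood low for Irf9 (-0.22, against -0.069 to -0.058) and Zbp1 (-0.25, against -0.011 to 0.030), and mouse 320 high for Eif2ak2 (0.25, against 0.0076 to 0.048). On day 15, mouse 310 stood high for Mx2 (0.038, against 0.0024 to 0.0056) and Usp18 (0.30, against 0.040 to 0.061) and low for Oas2 (-0.083, against -0.0068 to 0.0031), and mouse 320 low for Irf9 (-0.050, against 0.010 to 0.023).

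On day 20, mouse 320 stood low for Adar (-0.62, against -0.10 to -0.0015) and high for Trim30a (0.21, against -0.20 to -0.13), and mouse 310 high for Ifi47 (0.16, against -0.13 to -0.089). On day 25, mouse 305 stood low for Bst2 (-0.15, against -0.051 to -0.029) and Ifitm3 (-0.046, against 0.18 to 0.22).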

How the results depend on the processing

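All 39 calls of members kept their direction under the 7 settings besides the median, and 16 kept their call without each array in turn. With arrays centred on their median, the counts of members called were 27 on day 10, 0 on day 15, 0 on day 20 and 0 between days 20 and 25. That setting turned 9 changes: on day 10 Isg15 (-0.48), Ube2l6 (-0.42), Irf7 (-0.030), Rsad2 (-0.62) and Ifitm3 (-0.95), on day 15 Isg15 (-0.38) and Ube2l6 (-0.34), on day 20 Ube2l6 (-0.24), and from day 20 to day 25 Ifitm3 (0.23). Relative to the median of all genes, which that setting moved by -0.47, -0.35, -0.26 and 0.28, 4 of the 9 turned (Isg15 on both days, Rsad2 and Ifitm3 on day 10). The cause was not tested.

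The scanner software's log ratio called 20 members on day 15 and 4 on day 25. Scaling between arrays called 9, 17 and 2 on days 10, 15 and 25 and 0 between days 20 and 25. On day 10 it called 2737 of all genes, against 2135 in the main fit. No background correction called 23, 14 and 10 on days 15, 20 and 25. The mean of all kept probes called 9 on day 10 and 7 on day 15. Among all genes it called 1855 and 884 on these days, against 2135 and 1172 in the main fit. With the mouse as a replicate block 4 members were called on day 25, and the block ended no call of the others.

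Without each array in turn, the members called ranged from 7 to 14 on day 10, 5 to 13 on day 15, 0 to 10 on day 20, 0 to 6 on day 25, 7 to 9 between days 20 and 25, and 15 to 18 in the F test. Counts moved by over 1.5 times without mouse 305 of day 0 (7, 5, 1 and 1 on days 10, 15, 20 and 25), on day 10 without its mice 305 (7) and 315 (8), and on day 15 without its mice 310 (7), 315 (7) and 320 (5). On day 20 they did so without its mice 305 (10), 310 (3), 315 (0) and 320 (3) or day 0 mouse 315 (3), and on day 25 without its mouse 310 (6). Among all genes, the counts of 2135, 1172, 637, 30 and 3818 ranged without 1 array from 850 to 2844, 667 to 1597, 132 to 2685, 1 to 1569 and 2103 to 4749, and with the median were 7116, 9, 4, 0 and 0. No background correction gave 6093, 6419, 2785 and 1960 genes on the 4 days and 9113 in the F test, against 4703. The scanner ratio gave 4801, 6905, 1963 and 632, and 8848 in the F test. Scaling gave 5024 on day 15, 307 on day 25 and 106 between days 20 and 25, no filter 414 on day 20 and 10 on day 25, the mean of probes 13 on day 25, and the block 1467 on day 20 and 223 on day 25. Dim probes such as Mx1 are limited by their signal over background.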
